A study of Ovis aries with 6 samples.

Results

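Mitosis and spindle genes are described here in granulosa cells of Hu sheep (Ovis aries) in which INHBA had been targeted by RNA interference (siINHBA), set against cells given a negative control (siNC). The set was given as 35 named genes, and those with a row in the deposited table were taken: 34 of the 1620 genes in that table. ANLN, an actin-binding scaffold of the cleavage furrow, had no row in it and was not analysed here. They were grouped by role into cyclins and kinases, kinetochore and checkpoint, spindle motors and bundlers, chromosome structure with the passenger complex, and cytokinesis.

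Granulosa cells are the somatic cells that surround the oocyte in the follicle. INHBA encodes the beta A subunit of activin A and inhibin A. Primary cells were aspirated from follicles 3 mm or larger in slaughterhouse ovaries of sexually mature animals. In culture they received Lipofectamine complexes of INHBA siRNA or of the negative control, and RNA was taken after 24 h. Both groups therefore share the lipid transfection, and each held 3 libraries (siINHBA 1 to 3 and siNC 1 to 3). The labels do not state whether the libraries of a group stem from different cultures or different animals. The p-values thus speak of library-to-library spread alone, and that spread may be technical.

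Mitosis is driven by cyclin-dependent kinase 1 bound to cyclin B, which condenses chromosomes, opens the nuclear envelope and lets a bipolar spindle form. Kinetochores, built on centromeres, attach chromosomes to the spindle, and the spindle checkpoint holds the cell in metaphase until all are attached. Separation and cytokinesis follow once the anaphase-promoting complex has cyclin B and securin destroyed. Most genes of this machinery are transcribed late in the cell cycle under FOXM1 and B-MYB. In the ovary, granulosa cell proliferation carries follicle growth, and it ends at ovulation when the cells luteinise.

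The table bounds what can be read. It holds a raw count and an FPKM (fragments scaled to transcript length and to library depth) per gene and library, and only genes that the authors had called changed, so genes outside it cannot be described. Counts over its 1620 genes summed to between 1590871 and 2042924 in siINHBA and between 2781548 and 2948524 in siNC, while relative sequencing depth, obtained by dividing counts by FPKM, was 0.952 to 1.17 in siINHBA and 1 to 1.05 in siNC. INHBA itself was at 8.02, 6.51 and 7.54 FPKM in the siINHBA libraries and at 21.2, 21.8 and 18.5 FPKM in the siNC libraries, or -1.49 as a log2 fold change (SE 0.14, edgeR quasi-likelihood adjusted p = 3.9e-06). An exact permutation test of these FPKM values, two-sided, gave p = 0.1, below which 3 libraries against 3 cannot go. Of the granulosa markers 5 of 17 were listed: INHA, NR5A1, CYP11A1 and INHBA itself were lower, and HSD17B1 was higher, at 2.78 FPKM on average in siINHBA and 1.01 FPKM in siNC. Their FPKM summed to 65.5 to 82.2 in siINHBA and to 194.0 to 208.3 in siNC, and most of it was CYP11A1, with a mean of 51.6 FPKM in siINHBA and 141.6 FPKM in siNC. FSHR, CYP19A1, FOXL2 and AMH had no row, so the cell type could not be checked against them.

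All 34 mitosis and spindle genes fell in siINHBA. Their levels were 6.43% to 46.1% of the siNC level, with a median of 21.4%, and the median log2 fold change was -2.23, or 4.69-fold lower. The highest adjusted p among them was 0.0017 (edgeR quasi-likelihood with Benjamini-Hochberg adjustment over the 1620 genes). For every one of the 34, each siINHBA library lay below each siNC library in FPKM. This count has to be read against the table: 100% of its genes passed the same threshold, 65.7% of them as lower, and 99.9% had groups that did not overlap. Over all 1065 lower genes the median log2 fold change was -1.40. Fewer dividing cells and less of these messenger RNAs per dividing cell cannot be told apart in bulk RNA.

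**Figure D1:**
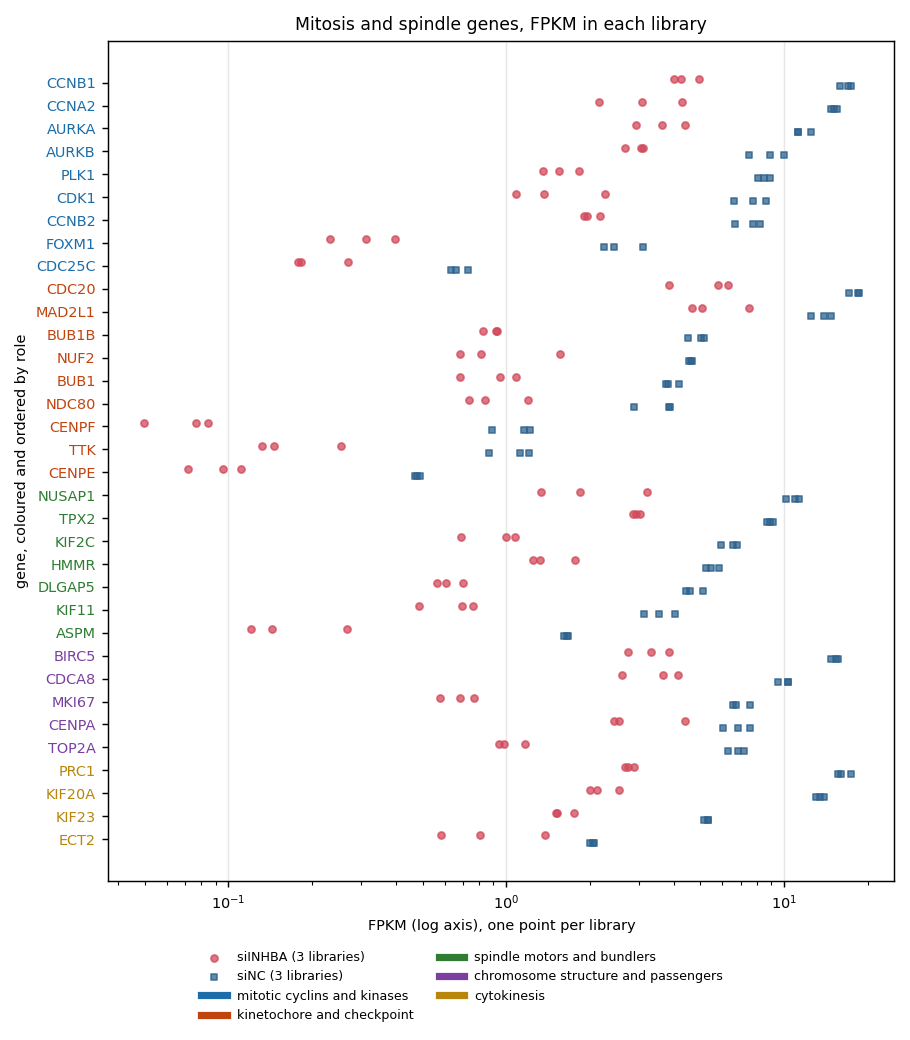
FPKM of each of the 34 mitosis and spindle genes on a log axis, with 1 point for each of the 3 siINHBA libraries (circles) and the 3 siNC libraries (squares); gene names are coloured by role. In every row the circles lie to the left of the squares, and the gap is widest for CENPF, MKI67 and ASPM.

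Among the cyclins and kinases all 9 fell, by 3.00 to 7.92-fold. This count and those of the roles below stand beside a table in which 100% of genes passed, 65.7% as lower. CCNB1, the cyclin B1 that activates CDK1 at mitotic entry, had 440, 414 and 444 counts in siINHBA and 1636, 1537 and 1667 counts in siNC. As FPKM this was 4.92, 4.25 and 4.03 in siINHBA and 17.5, 15.9 and 16.9 in siNC, with a log2 fold change of -1.93 and an SE of 0.13 (edgeR adjusted p = 8.4e-07). The libraries of each group were close together for CCNB1, and the groups were far apart. CDK1, its catalytic partner and the kinase of mitotic entry, stood at 2.27, 1.36 and 1.08 FPKM in siINHBA and at 8.61, 7.73 and 6.60 FPKM in siNC. Its log2 fold change was -2.28 (SE 0.26, edgeR adjusted p = 1.7e-05), and the first siINHBA library was the highest of its group.

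CCNB2, the second B-type cyclin, had 2.01 ± 0.144 FPKM in siINHBA and 7.52 ± 0.777 FPKM in siNC (mean ± SD, n = 3 here and below), at -1.90 on the log2 scale. CCNA2, cyclin A2 of S phase and early mitosis, was at 4.29, 2.16 and 3.07 FPKM in siINHBA and 15.5, 14.7 and 15.1 FPKM in siNC. The siINHBA libraries for CCNA2 differed among themselves by more than the siNC libraries did. PLK1, the polo-like kinase of centrosome maturation and chromosome separation, fell to 1.58 ± 0.239 FPKM in siINHBA, against 8.48 ± 0.448 FPKM in siNC, at -2.43 (SE 0.14). The Aurora kinases had smaller log2 fold changes, -1.67 for AURKA and -1.58 for AURKB. AURKA, at the spindle poles, had 3.66 ± 0.734 FPKM in siINHBA and 11.6 ± 0.78 FPKM in siNC. AURKB, the centromeric kinase, had 2.94 ± 0.233 FPKM in siINHBA and 8.80 ± 1.27 FPKM in siNC.

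FOXM1, the transcription factor that drives many genes of this set, showed the largest fall of its role. Its counts were 39, 54 and 36 in siINHBA and 315, 394 and 293 in siNC, at -2.98 on the log2 scale (SE 0.24, edgeR adjusted p = 2.2e-06). CDC25C, the phosphatase that removes the inhibitory phosphates of CDK1, was the lowest member of this role, with 26, 43 and 33 counts in siINHBA and 96, 103 and 116 counts in siNC. Its log2 fold change was -1.66 (SE 0.25, edgeR adjusted p = 9.5e-05).

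In the kinetochore and checkpoint role all 9 genes fell, over the widest range of any role, 2.39 to 15.4-fold. CENPF, a large protein of the outer kinetochore and nuclear matrix, had 29, 35 and 23 counts in siINHBA and 350, 469 and 503 counts in siNC. This was 0.0763, 0.0845 and 0.0498 FPKM in siINHBA and 0.892, 1.16 and 1.22 FPKM in siNC. The fall of CENPF, at -3.95 on the log2 scale (SE 0.25, edgeR adjusted p = 7.3e-07), ranked second among all falls of the table. At these counts the siINHBA level is imprecise, but no siINHBA library came near any siNC library. CENPE, the kinesin that carries chromosomes to the spindle equator, was the lowest of the 34 in siNC per length, at 0.0927 ± 0.0196 FPKM in siINHBA and 0.480 ± 0.00879 FPKM in siNC, a log2 fold change of -2.36 (SE 0.24).

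Of the checkpoint genes BUB1, BUB1B and TTK, BUB1 fell slightly less than the set's median of -2.23, and BUB1B and TTK fell more. BUB1 was at 1.08, 0.681 and 0.952 FPKM in siINHBA and at 3.83, 4.20 and 3.75 FPKM in siNC, at -2.11 on the log2 scale (SE 0.19). BUB1B, which encodes the BubR1 subunit of the mitotic checkpoint complex, had 0.919, 0.827 and 0.927 FPKM in siINHBA and 5.17, 5.01 and 4.53 FPKM in siNC, at -2.45 (SE 0.15). TTK, the MPS1 kinase that starts checkpoint signalling, had 58, 33 and 41 counts in siINHBA and 206, 274 and 301 counts in siNC, at -2.58 (SE 0.27). Their groups were apart by several times the spread within them.

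MAD2L1, the MAD2 protein that the checkpoint turns into an inhibitor of anaphase, fell least in this role. Its FPKM was 7.50, 4.65 and 5.05 in siINHBA and 14.7, 12.5 and 13.9 in siNC, at -1.26 on the log2 scale (SE 0.19, edgeR adjusted p = 9.1e-05). CDC20, the activator of the anaphase-promoting complex that MAD2 restrains, was the highest of the 34 genes in siNC, at 18.5, 18.5 and 17.1 FPKM, against 6.28, 3.87 and 5.78 FPKM in siINHBA. NDC80 and NUF2, partners in the complex that binds microtubules at the kinetochore, were at -1.93 (SE 0.23) for NDC80 and -2.17 (SE 0.28) for NUF2.

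All 7 spindle motors and bundlers fell, by 3.02 to 9.31-fold, and their median of 5.55-fold was the largest of the 5 roles. ASPM, a protein of the spindle poles, stood at 0.267, 0.143 and 0.120 FPKM in siINHBA and at 1.65, 1.68 and 1.61 FPKM in siNC, at -3.22 on the log2 scale (SE 0.26, edgeR adjusted p = 2.2e-06). In siNC its libraries were nearly equal, and in siINHBA the first library was well above the other 2. The first siINHBA library was the highest of its group for all 7 genes of this role. DLGAP5, which stabilises kinetochore fibres, had 77, 73 and 76 counts in siINHBA and 526, 518 and 615 counts in siNC, at -2.90 (SE 0.17). KIF2C, a kinesin that depolymerises microtubules and corrects wrong attachments, had 0.919 ± 0.204 FPKM in siINHBA and 6.42 ± 0.439 FPKM in siNC, at -2.80 (SE 0.19).

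KIF11, the motor that pushes the spindle poles apart, was at 0.645 ± 0.144 FPKM in siINHBA and 3.58 ± 0.46 FPKM in siNC. NUSAP1, a microtubule-bundling protein, ranged widely in siINHBA, at 3.20, 1.33 and 1.84 FPKM, against 11.3, 10.1 and 10.9 FPKM in siNC. HMMR, a spindle assembly factor also known as a hyaluronan receptor, had 1.45 ± 0.275 FPKM in siINHBA and 5.50 ± 0.304 FPKM in siNC. TPX2, which activates AURKA and nucleates spindle microtubules, fell least of the 7, to 3.04, 2.94 and 2.87 FPKM in siINHBA, against 8.87, 9.13 and 8.67 FPKM in siNC, at -1.59 (SE 0.11).

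The 5 genes of chromosome structure and the passenger complex all fell, by 2.17 to 10.3-fold, and they hold both one of the largest and the smallest fall of the set. MKI67, the Ki-67 protein that coats mitotic chromosomes and marks cycling cells, had 222, 322 and 323 counts in siINHBA and 2713, 3141 and 2772 counts in siNC. Its FPKM was 0.577, 0.766 and 0.680 in siINHBA and 6.71, 7.55 and 6.53 in siNC, at -3.36 on the log2 scale (SE 0.14, edgeR adjusted p = 1.4e-07). TOP2A, the topoisomerase that untangles sister chromatids, had 229, 210 and 228 counts in siINHBA and 1294, 1447 and 1549 counts in siNC, at -2.71 (SE 0.14). MKI67 was lowest in the first siINHBA library, unlike most of the set, and neither gene's groups came near each other.

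CENPA, the histone H3 variant that defines centromeres, had the smallest fall of the 34. It was at 4.39, 2.54 and 2.45 FPKM in siINHBA and at 7.51, 6.03 and 6.82 FPKM in siNC, at -1.12 on the log2 scale (SE 0.23, edgeR adjusted p = 7.7e-04). The first siINHBA library lay closer to the siNC libraries than the other 2 did, and the groups did not overlap. The passenger subunits BIRC5 (survivin) and CDCA8 (borealin), which place AURKB on the centromere, were at -2.20 (SE 0.15) for BIRC5 and -1.53 (SE 0.18) for CDCA8 on the log2 scale, beside -1.58 (SE 0.17) for AURKB.

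Of the cytokinesis genes 4 of 5 were listed and all 4 fell. PRC1, which bundles the microtubules of the central spindle, was at 2.67, 2.75 and 2.89 FPKM in siINHBA and at 17.4, 15.7 and 16.0 FPKM in siNC, at -2.61 (SE 0.12, edgeR adjusted p = 2.3e-07). KIF20A, the midzone kinesin MKLP2, had 211, 244 and 332 counts in siINHBA and 1497, 1586 and 1516 counts in siNC, at -2.60 (SE 0.14). KIF23, the kinesin MKLP1 of the centralspindlin complex, fell less, to 1.60 ± 0.141 FPKM in siINHBA, against 5.27 ± 0.103 FPKM in siNC. ECT2, the exchange factor that activates RhoA at the furrow, had 1.38, 0.806 and 0.582 FPKM in siINHBA and 2.05, 2.00 and 2.06 FPKM in siNC, at -1.16 (SE 0.27, edgeR adjusted p = 0.0017). Its 3 siINHBA libraries differed by more than 2-fold while its siNC libraries were almost equal.

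**Figure D2:**
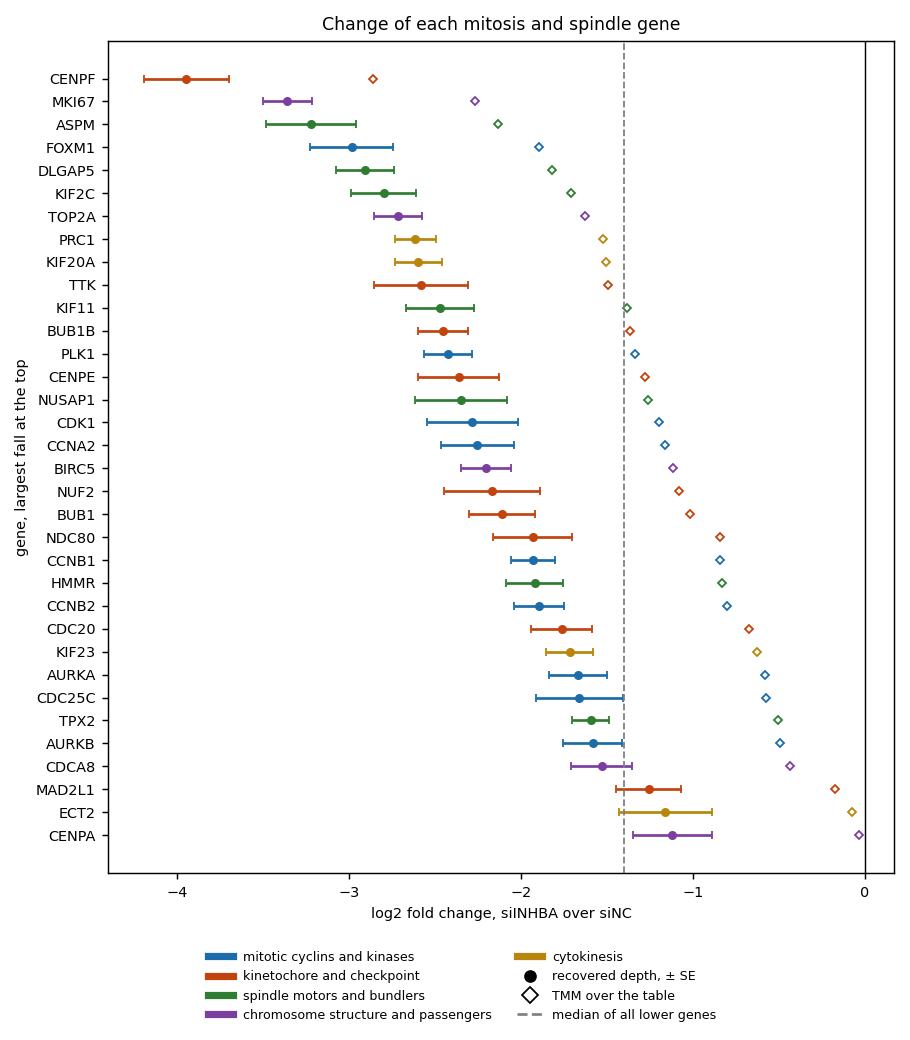
Log2 fold change of each gene, siINHBA over siNC, with filled points and SE bars for the recovered depth and open diamonds for TMM factors taken over the table, ordered from the largest fall (CENPF, -3.95) to the smallest (CENPA, -1.12). The dashed line is the median of all lower genes in the table, -1.40; 31 of the 34 filled points lie to its left.

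The size of these falls depended on how libraries were scaled. TMM, edgeR's default, centres the table on its own genes, all of them called changed, and raised the median log2 fold change of the table by 1.09, so that its values are relative to that shift. Under it all 34 genes were still lower in siINHBA and 29 passed, against 22.5% of the table, with a median log2 fold change of -1.14. The 29 held 8 of 9 cyclins and kinases, 8 of 9 kinetochore and checkpoint genes and 7 of 7 spindle motors and bundlers. They also held 3 of 5 chromosome structure and passenger genes and 3 of 4 cytokinesis genes. CENPA (adjusted p = 0.92), ECT2 (0.84), MAD2L1 (0.49), CDC25C (0.075) and CDCA8 (0.064) no longer passed with TMM in edgeR, and the same 5 genes did not pass in DESeq2 with its own size factors. INHBA itself was at -0.41 with TMM and passed in edgeR (adjusted p = 0.018). With the recovered depth its -1.49 was near the median of all lower genes, -1.40. In the authors' deposited table all 34 genes were listed as lower, and the deposited log2 fold changes differed from those given here by at most 0.19.

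Ratios between genes within a library do not depend on its scaling, and they are given as a description without a test. CENPF over CDK1 had log2 FPKM ratios of -4.89, -4.01 and -4.44 in siINHBA and of -3.27, -2.73 and -2.43 in siNC. MKI67 over TOP2A had log2 ratios of -1.02, -0.36 and -0.47 in siINHBA and of 0.09, 0.14 and -0.14 in siNC. In both pairs the groups did not overlap. Each sets a larger fall (CENPF -3.95, MKI67 -3.36) over a smaller one (CDK1 -2.28, TOP2A -2.71), which by itself moves the ratio. For the cyclin and its kinase, CCNB1 over CDK1, the log2 ratios were 1.12, 1.64 and 1.90 in siINHBA and 1.02, 1.04 and 1.36 in siNC, and the groups overlapped. CENPF over CENPA was picked as the largest over the smallest fall, which by itself sets its ratio apart between the groups. It had log2 ratios of -5.85, -4.91 and -5.62 in siINHBA and of -3.07, -2.38 and -2.48 in siNC.

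Further pairs were chosen after their values had been seen. CCNB1 over CCNB2 had mean log2 ratios of 1.13 in siINHBA and 1.16 in siNC, and AURKA over TPX2 of 0.29 in siINHBA and 0.39 in siNC, with overlapping groups in both. NDC80 over NUF2 had mean log2 ratios of -0.07 in siINHBA and -0.39 in siNC, also with overlap. AURKB over BIRC5 had a mean log2 ratio of -0.16 in siINHBA and -0.80 in siNC, and the groups did not overlap. For CCNB1 over FOXM1 the means were 3.84 in siINHBA and 2.70 in siNC, again without overlap. CENPA over HJURP, its own chaperone, had log2 ratios of 3.22, 2.40 and 1.88 in siINHBA and of 0.58, 0.32 and 0.59 in siNC. The ratio of CENPA to HJURP was higher in every siINHBA library than in any siNC library. Each of these pairs with groups apart sets a smaller fall over a larger one, which by itself moves the ratio. They were CENPA (-1.12) over HJURP (-3.13), AURKB (-1.58) over BIRC5 (-2.20) and CCNB1 (-1.93) over FOXM1 (-2.98).

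The siINHBA libraries did not carry the fall equally. Relative to the siNC mean, the median of the 34 genes was -1.88 on the log2 scale in the first siINHBA library, -2.48 in the second and -2.35 in the third, against -0.00 to 0.02 in the siNC libraries. The first siINHBA library was the highest of its group for 23 of the 34 genes, or 67.6%, against 36.8% of all 1065 lower genes. It was also the highest for 38 of the 62 other mitotic genes, or 61.3%, and for 12 of the 20 replication genes. Spread within the groups also differed. The median coefficient of variation of the 34 genes was 22.2% in siINHBA and 6.33% in siNC, and over all lower genes it was 18.7% in siINHBA and 7.04% in siNC. INHBA was also highest in the first siINHBA library, at 39.2% of the siNC mean FPKM, against 31.8% in the second and 36.8% in the third. Its counts over recovered depth were 1613, 1315 and 1130, which put the third library lowest, since its ratio of count to FPKM departed by up to 21.3% from its median. CDKN1A was lowest in the first siINHBA library, and so were INHA, NR5A1, CYP11A1, PDGFRB, DES, VWF, KDR and CSF1R among the markers, while HSD17B1 was lowest in the third. The part of any of these in the result was not tested. Leaving out any 1 library, the 34 genes all still passed as lower, and the largest move of a log2 fold change was 0.43, for NUF2 without the first siINHBA library.

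**Figure D3:**
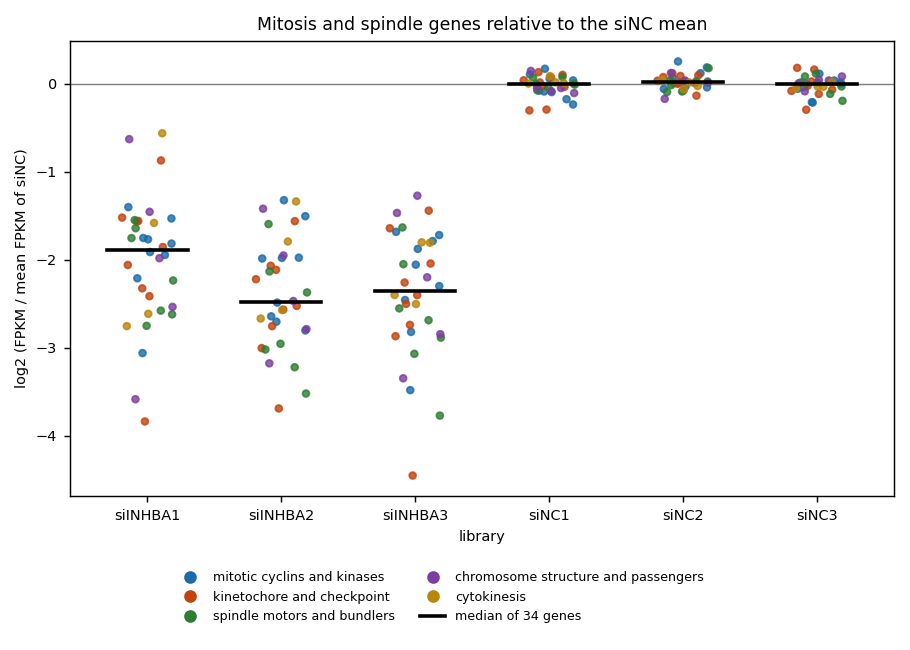
Log2 ratio of FPKM to the mean of the siNC libraries in each of the 3 siINHBA and 3 siNC libraries, 1 point per gene coloured by role, with a bar at the median of the 34 genes. The medians are -1.88, -2.48 and -2.35 in siINHBA and close to 0 in siNC, and in every siINHBA library the points spread more widely than in any siNC library.

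A list of 141 other mitotic genes was also looked up, and 79 of them had no row, so their direction is unknown. The 62 in the table all fell, by a median of 3.26-fold, where 65.7% of the table was lower. Under TMM 34 of the 62 passed as lower, against 22.5% of the table. In 2, KIFC1 and CKS2, the log2 fold change turned to just above 0 (0.11 and 0.07) without passing. Kinetochore and centromere genes had 13 of 40 listed, condensin and cohesion genes 8 of 18, kinesins and spindle genes 15 of 27, cytokinesis genes 8 of 12, mitotic regulators 14 of 32 and centriole and chromatin genes 4 of 12. DEPDC1, a cell division gene of the regulator list, fell most, to 0.224 ± 0.0626 FPKM in siINHBA, against 2.50 ± 0.149 FPKM in siNC, at -3.36 (SE 0.22), with a count to FPKM ratio that departed by up to 15.6% from its median.

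Several of these genes work directly with the 34. HJURP, which deposits CENPA, was at 0.472, 0.479 and 0.667 FPKM in siINHBA and at 5.02, 4.84 and 4.53 FPKM in siNC, at -3.13 (SE 0.19). OIP5, part of the complex that prepares centromeres for CENPA, was at -2.66 (SE 0.34). CCNF, the cyclin F of a ubiquitin ligase, fell to 0.621 ± 0.0837 FPKM in siINHBA, against 4.50 ± 0.309 FPKM in siNC. The kinesin KIF18B and the spindle protein TROAP were at -2.84 (SE 0.22) for KIF18B and -2.90 (SE 0.32) for TROAP. ESPL1, the separase that cuts cohesin at anaphase, and the cohesin acetyltransferase ESCO2 were at -1.66 (SE 0.14) and -2.04 (SE 0.27). SHCBP1 of the midbody and the formin DIAPH3 were at -2.28 (SE 0.24) and -2.05 (SE 0.13). PLK4, the kinase of centriole duplication, and the lamin LMNB1 were at -1.70 (SE 0.26) and -1.35 (SE 0.11), and neither passed with TMM (adjusted p = 0.064 and 0.085).

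Of 51 genes of DNA replication and the G1/S transition 20 were listed, all of them called by the authors as every gene of the table was. Each of the 20 fell, with a median of 3.05-fold, where 65.7% of the table was lower. Their 3 largest falls were in EXO1, a DNA repair exonuclease, at -2.51 (SE 0.22), in the ribonucleotide reductase subunit RRM2 at -2.39 (SE 0.20) and in the repressor E2F8 at -2.31 (SE 0.25). With TMM 9 of the 20 passed as lower, against 22.5% of the table, and GINS3 and E2F1 lay just above 0 without passing. The median log2 fold changes were thus -2.23 for the mitosis and spindle genes, -1.70 for the other mitotic genes and -1.61 for the replication genes, against -1.40 for all lower genes, and no test was made of these differences. CDKN1A, the p21 inhibitor of cyclin-dependent kinases, was at 421, 525 and 520 FPKM in siINHBA and at 180, 182 and 169 FPKM in siNC, at 1.46 on the log2 scale (SE 0.12, edgeR adjusted p = 2.0e-06). Of 17 CDK inhibitors, pocket proteins and related G1 regulators 5 were listed. CDKN1A, CDKN2C (1.19) and BTG2 (1.38) were higher, and CCND2 (-1.40) and RBL1 (-1.26) were lower, where 34.3% of the table was higher and 65.7% lower. With TMM 3 of the 5 passed as higher and 0 as lower.

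**Figure D4:**
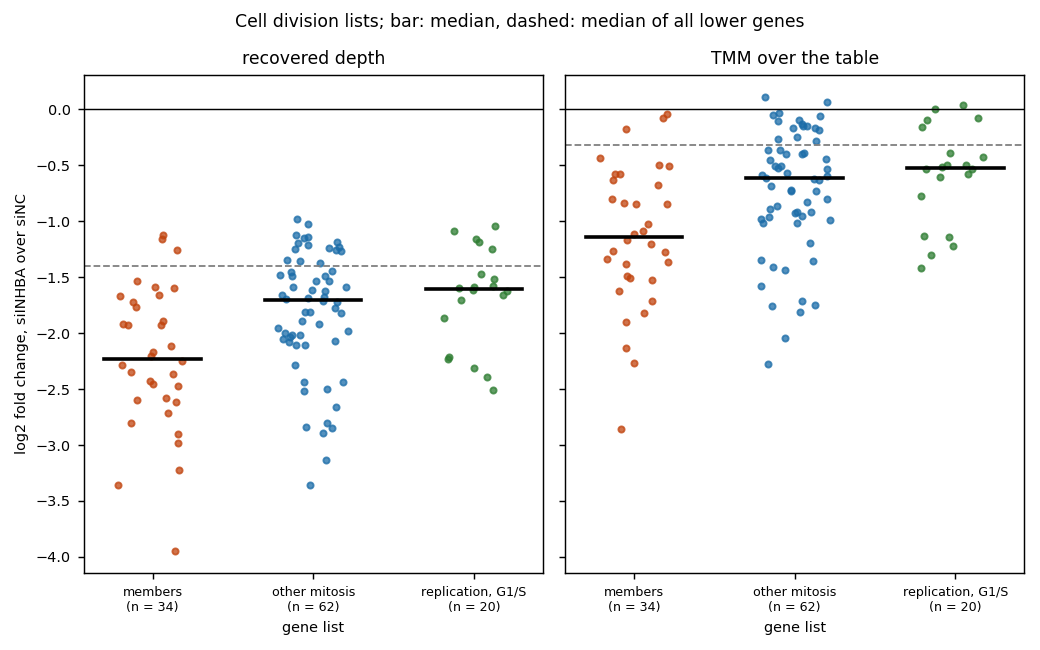
Log2 fold change, siINHBA over siNC, of each gene among the 34 mitosis and spindle members, the 62 other mitotic genes and the 20 replication and G1/S genes, with the recovered depth on the left and TMM over the table on the right; bars are medians and the dashed line is the median of the 1065 lower genes. With the recovered depth the bars lie at -2.23, -1.70 and -1.61; with TMM they lie at -1.14, -0.62 and -0.52.

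Among the largest falls of the table the 34 genes were frequent. They made up 2 of the 10 largest falls, 4 of the 20 largest, 8 of the 50 largest and 15 of the 100 largest, where they are 3.19% of all lower genes. The 34 had been chosen with earlier results of these data known, so these counts are a description only. The other mitotic genes made up 11 and the replication genes 2 of the 100 largest. CENPF ranked second, MKI67 eighth, ASPM eleventh and FOXM1 twentieth.

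Larger falls went with longer transcripts among the 34 genes. The ratio of count to FPKM gives transcript length relative to the table's median, and it was 3.42 for CENPF, 3.51 for MKI67 and 3.65 for ASPM, the 3 longest. Across the 34 genes the correlation of log2 fold change with log2 relative length was -0.62 (Pearson) and -0.55 (Spearman), and without the 3 longest it was -0.38 and -0.41 over 31 genes. In the other 62 mitotic genes it was -0.15 and -0.20, and in all 1065 lower genes 0.04 and 0.04. These are descriptions across genes measured in the same 6 libraries, and genes are not independent replicates. CENPE, with a relative length of 2.68, fell by 2.36 on the log2 scale, close to the median, and TPX2, at 1.78, fell by 1.59.

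**Figure D5:**
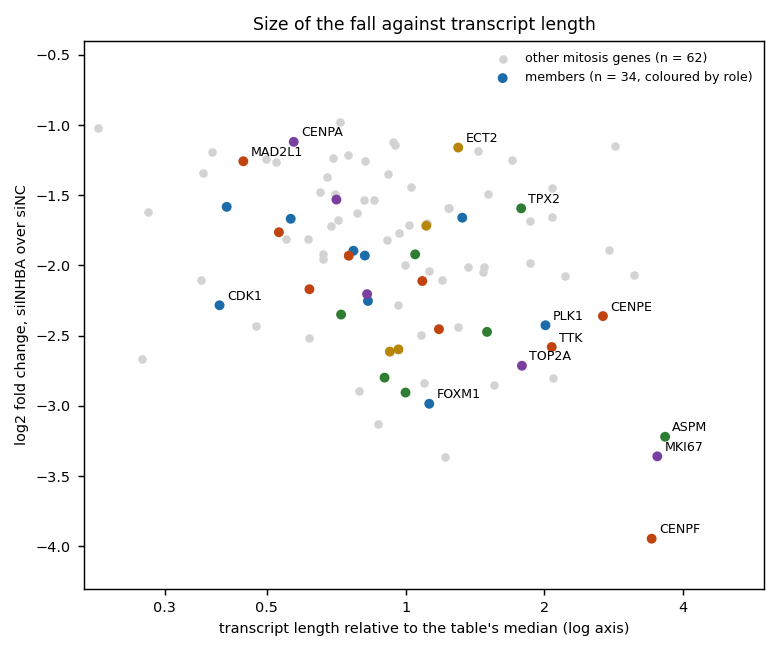
Log2 fold change, siINHBA over siNC, against transcript length relative to the table's median (log axis), for the 34 mitosis and spindle genes coloured by role and the 62 other mitotic genes in grey. CENPF, MKI67 and ASPM stand at the lower right, with lengths of 3.42 to 3.65 and log2 fold changes of -3.95 to -3.22, and TPX2 and ECT2 lie above genes of similar length.

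The authors' annotation gave no KEGG pathway for 17 of the 34 genes, the same share as in the table (810 of 1620), among them the kinetochore and spindle genes CENPF, NDC80, NUF2, KIF11 and TPX2. The KEGG cell cycle pathway had 36 genes in the table, 31 lower and 5 higher, and 11 of the 34 were among them. Oocyte meiosis had 22 genes, 21 of them lower, and progesterone-mediated oocyte maturation 17, 16 of them lower, and each held 9 of the 34. Both of these pathways held CCNB1, CCNB2, CDK1, PLK1, AURKA, BUB1, MAD2L1 and CDC25C, so their counts are not independent. For comparison, 65.7% of all 1620 genes were lower, and every one of them had been called changed. The members in each pathway were already known to be lower. The pathway counts are a description only, and no test was made of them.

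Few markers of other ovarian cell types were listed, and their part in the result was not tested. Of 11 theca and stroma markers 2 (PDGFRB and DES) were listed, with FPKM summing to 16.1 to 21.6 in siINHBA and 63.0 to 65.9 in siNC. Of 8 endothelial markers 2 (VWF and KDR) were listed, summing to 0.117 to 0.213 FPKM in siINHBA and 0.569 to 0.679 FPKM in siNC. Of 8 leukocyte markers 1, CSF1R, was listed, at 0.176 to 0.231 FPKM in siINHBA and 0.422 to 0.462 FPKM in siNC, and none of 7 oocyte markers was. In a RefSeq gene table of the sheep assembly ARS-UI_Ramb_v3.0, which need not be the one the authors used, 10 of the 33 genes found overlap another gene, among them CCNA2 with EXOSC9, KIF20A with CDC23 and PRC1 with RCCD1. The sources used here do not say whether counting used strand, so reads in such overlaps cannot be assigned with certainty.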

How the data were processed

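Libraries (3 siINHBA and 3 siNC) were made from mRNA captured on oligo(dT) beads, fragmented and randomly primed, per the labels' protocols. For each gene the authors deposited raw count and FPKM columns for the 6 libraries, with their own adjusted p-value and log2 fold change, per the file headers. Aligner, counter, test and genome build: not given in the sources used here. The highest deposited adjusted p-value is 0.0090 and the smallest absolute deposited log2 fold change 1.00, so the table holds called genes only. Of its lines 4 held no complete gene. The 4 other sheets repeat its rows or hold gene IDs with KEGG text and were not used.

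The test was edgeR 4.0.16 under R 4.3.3 (glmQLFit, glmQLFTest, filterByExpr with a minimum count of 10) on the counts, adjusted by Benjamini-Hochberg over the 1620 genes, with a threshold of 0.05. Library size was the median ratio of count to FPKM over the 702 genes whose count exceeded 200 in each library. The SE is the absolute log2 fold change over the square root of F. Count over FPKM departed from a member's own median by over 5% for 1 of the 34 genes, PRC1, and, outside them, by up to 21.3% for INHBA. Libraries of a group differed beyond sampling noise (mean chi-square per gene 17.6 to 47.8 in siINHBA and 5.37 to 8.86 in siNC). The fit was tested on simulated data with a minority of genes changed, equal spread in both groups and the true depths given. The scaling was not tested by it. Members, lists and the scaling were chosen with earlier results of these data known. Named genes were all members found, the 2 largest falls of each other mitotic list at 1 FPKM or more in a group, the 3 largest falls of the replication list, INHBA and CDKN1A; KIFC1, CKS2, GINS3, E2F1, CDKN2C, BTG2, CCND2, RBL1 and the markers were added once their values were known. Alternatives used DESeq2 1.42.0 and limma 3.58.1. No sequences were at hand to be shown.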

Additional observations from a re-analysis of the deposited data

How the results depend on the processing

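The alternatives were TMM factors over the table, DESeq2 with the recovered depth or its own size factors, limma on log2(FPKM + 1) and log2(FPKM + 0.1), no count filter, a minimum of 5 FPKM in a group, a log2 fold change of 1 or more in size, a replicate block, and leaving out each library. For the 34 genes they gave 463 log2 fold changes, of which 453 kept their direction and their call and 10 no longer passed, all under TMM or DESeq2's own size factors and for the 5 genes named in the report; none reversed. Counts of lower genes moved with those 2 scalings, which centre on called genes: 34 and 34 of the other mitotic genes, 9 and 10 of the replication genes, 3 and 3 of the chromosome structure genes, and 364 and 359 of the table passed as lower. With at least 5 FPKM fewer genes are tested, and 21 of the members, 2 of the kinetochore genes, 4 of the spindle genes, 24 of the other mitotic genes, 9 of the replication genes and 504 of the table passed as lower, which was every lower gene left among the listed sets. The labels state no pairing by number, and deviations from the group means correlated at 0.11, 0.35 and -0.01 between same-numbered libraries; with a replicate block 34 members and 1065 genes of the table passed as lower. Every gene had been called by the authors from these 6 libraries, which limits how far the counts can move, and members with under 50 counts in siINHBA libraries, such as CENPF, have imprecise folds.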
